A study of Mus musculus with 5 samples.

Results

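The genes described here are 44 genes of glycolysis and of the response to low oxygen, which were taken by symbol from the 23903 genes of an RNA sequencing table of mouse adrenal cells. They comprise 4 transporters of glucose and lactate, 9 enzymes of upper and 8 of lower glycolysis, 4 enzymes that set the level of fructose 2,6-bisphosphate, 4 pyruvate dehydrogenase kinases, 3 alpha subunits of the hypoxia-inducible factor (HIF), 4 proteins that lead to its degradation, and 8 genes known to respond to it. All 44 were in the table, with 71 transcripts in total, and the transcript with the highest mean was used for each gene. Of these, 43 reached 1 FPKM (sequenced fragments, scaled by transcript length and library size) in at least 2 libraries, whereas Car9 did not.

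Dissociated adrenal cells of newborn mice had been separated on dishes coated with an antibody against L1CAM, a cell adhesion molecule on the surface of chromaffin cells. The cells that attached and those that were washed off were then grown as floating spheres in serum-free medium. The L1CAM-positive spheres, labelled as chromaffin cells, gave 2 libraries, number 25 (8 days in culture) and number 31 (5 days). The L1CAM-negative spheres, labelled as non-adrenergic, gave 3 libraries, number 25 (8 days), number 31 (5 days) and number 28 (8 days). The labels give the libraries of number 25 and 31 as equal mixes of cells from postnatal days 0 and 2 and number 28 as postnatal day 5, so that age is confounded with number 28, and culture time and number cannot be told apart within the L1CAM-positive spheres. The strain is C57/bl6 in the labels and OF-1 in the methods of the study. No group was genetically modified or treated with a drug, and nothing says whether the libraries came from separate cultures or litters, so that a p-value measures no more than how far these 5 libraries vary, possibly for technical reasons. The depth of the libraries is unknown.

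The fractions differed in cell types, and no result could be separated from this difference. The summed level of 9 chromaffin cell markers was 8736 and 6993 FPKM in L1CAM-positive 25 and 31, against 525, 547 and 125 FPKM in L1CAM-negative 25, 31 and 28. The 7 adrenocortical markers summed to 1783 and 1845 FPKM in L1CAM-positive spheres, against 12859, 9065 and 7731 FPKM in L1CAM-negative spheres, and the 7 markers of fibroblasts and the capsule to 1131 and 1236 FPKM, against 6703, 5561 and 4644 FPKM. Chromaffin markers were thus present in the fraction labelled so, and both fractions also contained transcripts of the other cell types. In bulk samples, fewer cells of a type and less RNA per cell cannot be told apart.

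Glycolysis splits glucose into pyruvate in the cytosol, and pyruvate is either reduced to lactate or passed to mitochondria. Most of its steps are catalysed by several isoenzymes, encoded by different genes, whose use differs between tissues. HIF is a transcription factor of an alpha and a beta subunit. In the presence of oxygen, prolyl hydroxylases modify the alpha subunit, which is then bound by VHL and degraded, whereas at low oxygen it accumulates and activates genes of glycolysis and of many other processes. HIF2A, encoded by Epas1, is known for its high level in the sympathoadrenal lineage and for its mutation in tumours of chromaffin cells.

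Of the 44 genes, 13 passed the test between the fractions, of which 8 were higher and 5 were lower in L1CAM-positive spheres. The higher genes were Adm, Slc2a3, Epas1, Eno2, Hk1, Pfkp, Pfkm and Slc16a1, and the lower ones were Pdk4, Hif3a, Ldhb, Pdk3 and Pfkfb3. The test was limma's moderated linear model on the deposited log2 values of all 23903 genes, with an adjusted p under 0.05 by Benjamini-Hochberg. Across all genes tested, 11.6% were called higher and 10% lower, together 21.6%, and 33.5% were called among the 14091 genes with at least 1 FPKM in 2 libraries. Of these 14091 genes, 17.4% were called higher and 16.1% lower. The small sets of genes described below hold too few genes for a count to be read as particular to a set. The 13 genes are 29.5% of the 44, a share between these backgrounds, and their median log2 fold change was 0.02, against 0.00 over all genes. The libraries of the fractions did not overlap for 22 of the 44 genes, 11 in each direction, against 48.9% of all genes (23% higher and 26% lower). The median was thus near 0, and the differences lay between its members, as the plot of the levels shows. A fold change is given on the log2(FPKM + 2) scale, as L1CAM-positive over L1CAM-negative, and understates the change of genes at low level. None of the 13 overlapped between the fractions, so that their direction could not turn when any one library was left out. The calls, however, depended on the libraries. Without L1CAM-positive 25 or L1CAM-positive 31, 2 and 6 of the 13 genes passed. Without L1CAM-negative 25, 31 or 28, 3, 5 and 10 of them passed. Slc2a3 was the gene that passed in each of these 5 fits. With a robust variance estimate, 3 of the 13 passed, Slc2a3, Pdk4 and Adm. With culture period as a term, 7 of the 13 passed. The labels do not say that a number pairs cultures, and the fit with number as a block, under which the calls were lost, is given at the end. Where a fraction was left with 1 library, that library is assumed to vary like the others. In RefSeq (GRCm38.p6), the genes with the largest changes lie at chr7:110627657-110629820 (Adm), chr6:122727809-122802363 (Slc2a3), chr6:5483351-5496278 (Pdk4) and chr7:17030993-17062427 (Hif3a), and Epas1 lies at chr17:86753864-86833410.

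**Figure D1:**
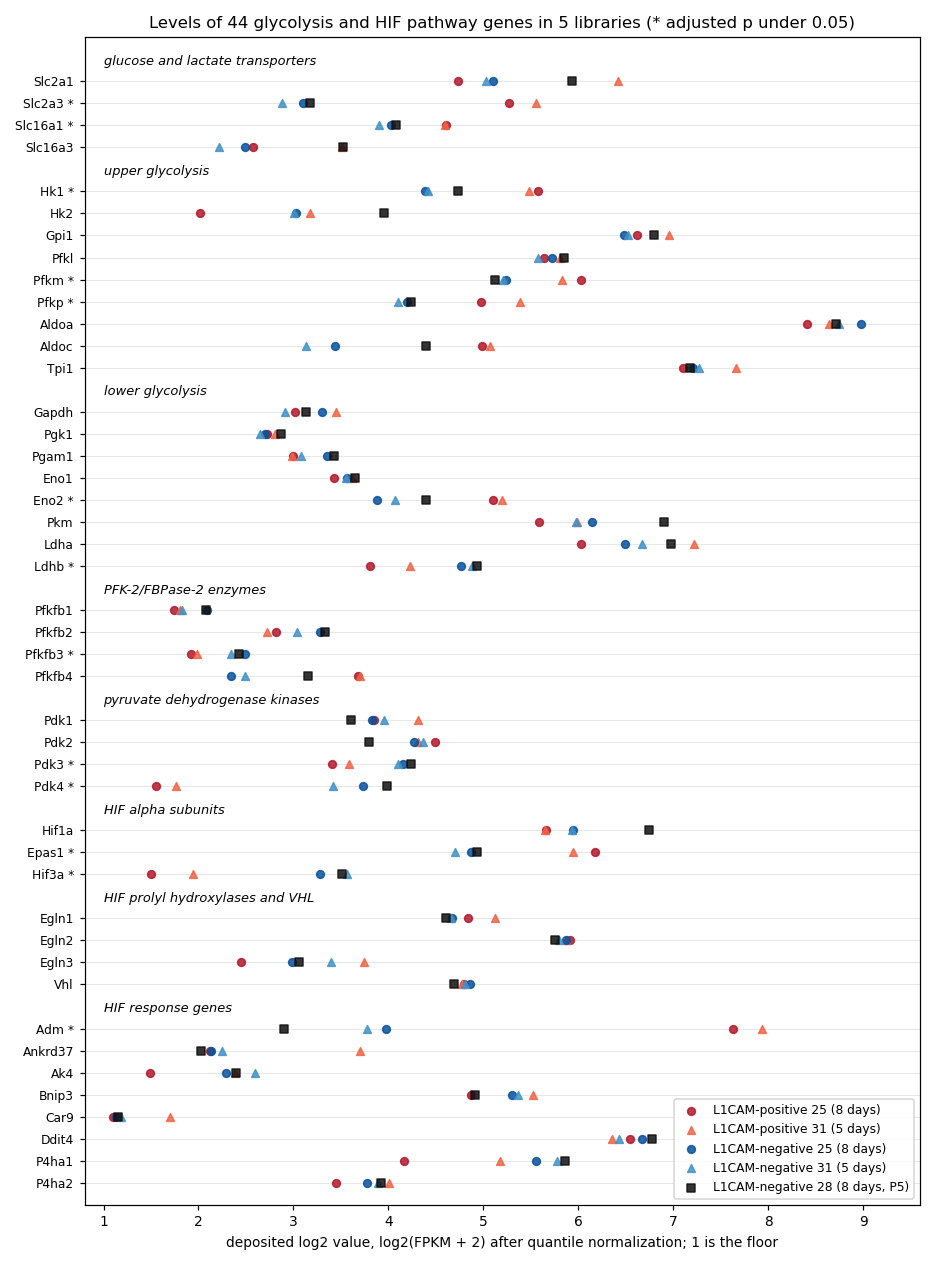
Level of each of the 44 genes in the 5 libraries, as the deposited log2 value, grouped by role. Red symbols are the 2 L1CAM-positive and blue or black symbols the 3 L1CAM-negative libraries, and asterisks mark the 13 genes with an adjusted p under 0.05. Adm, Slc2a3 and Epas1 lie to the right in both L1CAM-positive libraries, and Pdk4 and Hif3a to the left.

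Among the transporters, 2 of 4 were higher in L1CAM-positive spheres, against 17.4% of genes at 1 FPKM or more in 2 libraries. With so few genes, this count is not read as particular to them. The share of Slc2a3 among both glucose transporter genes was larger in both L1CAM-positive libraries. Slc2a3, which encodes the high-affinity glucose transporter GLUT3 of neurons, had 36.7 and 44.9 FPKM in L1CAM-positive 25 and 31, against 6.55, 5.37 and 7.05 FPKM in L1CAM-negative 25, 31 and 28. Both L1CAM-positive libraries were above all L1CAM-negative ones, and the log2 fold change was 2.36 (SE 0.14, limma adjusted p = 0.00539). Slc2a1, which encodes the widely expressed transporter GLUT1, had 24.5 and 83.8 FPKM in L1CAM-positive spheres, against 32.4, 30.5 and 59.3 FPKM in L1CAM-negative spheres. The L1CAM-positive libraries held both its lowest and its highest level, and the gene did not pass the test (log2 fold change 0.22, SE 0.66, adjusted p = 1.00). Of the FPKM of both genes together, Slc2a3 accounted for 60.0% and 34.9% in L1CAM-positive spheres, against 16.8%, 14.97% and 10.6% in L1CAM-negative spheres. Slc16a1, which encodes the lactate and pyruvate carrier MCT1, had 22.4 and 22.1 FPKM in L1CAM-positive spheres, against 14.3, 13.0 and 14.9 FPKM in L1CAM-negative spheres. Its difference was small but regular, with a log2 fold change of 0.60 (SE 0.07, adjusted p = 0.0131). Slc16a3, the lactate exporter MCT4, had 3.97 and 9.44 FPKM in L1CAM-positive spheres, against 3.61, 2.64 and 9.45 FPKM in L1CAM-negative spheres, with overlapping groups.

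In upper glycolysis, 3 of 9 enzymes passed as higher in L1CAM-positive spheres and none as lower. These are 33.3%, against 33.5% called in either direction among genes at 1 FPKM or more in 2 libraries. The 3 genes were Hk1, Pfkm and Pfkp. Hk1, which encodes the hexokinase that is prominent in brain, had 45.7 and 42.7 FPKM in L1CAM-positive 25 and 31, against 18.9, 19.4 and 24.6 FPKM in L1CAM-negative 25, 31 and 28. The groups did not overlap, with a log2 fold change of 1.02 (SE 0.13, adjusted p = 0.0182). Hk2, the isoenzyme that is known to respond to insulin and to HIF, had 2.03 and 7.04 FPKM in L1CAM-positive spheres, against 6.17, 6.01 and 13.5 FPKM in L1CAM-negative spheres, and did not pass the test. Hk1 made up 95.7% and 85.9% of both hexokinases in L1CAM-positive spheres, against 75.4%, 76.3% and 64.6% in L1CAM-negative spheres.

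Phosphofructokinase, which commits glucose to glycolysis, has a muscle (Pfkm), a platelet (Pfkp) and a liver form (Pfkl). Pfkm had 63.1 and 54.7 FPKM in L1CAM-positive spheres, against 35.8, 35.0 and 32.8 FPKM in L1CAM-negative spheres (log2 fold change 0.74, SE 0.08, adjusted p = 0.0132). Pfkp had 29.5 and 39.7 FPKM, against 16.3, 15.1 and 16.8 FPKM (log2 fold change 1.00, SE 0.15, adjusted p = 0.0224). Both were thus higher in each L1CAM-positive library than in any L1CAM-negative one. Pfkl had 48.0 and 53.9 FPKM in L1CAM-positive spheres, against 50.8, 45.8 and 55.8 FPKM in L1CAM-negative spheres, and its log2 fold change was 0.01 (SE 0.11), with a sign that turned under centring on the median.

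Aldoa, the aldolase of most tissues, was the gene with the highest level among the 44, at 339 and 398 FPKM in L1CAM-positive spheres, against 502, 429 and 418 FPKM in L1CAM-negative spheres. Its groups did not overlap, but it did not pass the test (log2 fold change -0.29, SE 0.13, adjusted p = 0.230). Aldoc, the aldolase of brain, had 29.8 and 31.6 FPKM in L1CAM-positive spheres, against 8.87, 6.74 and 19.1 FPKM in L1CAM-negative spheres. Among the L1CAM-negative libraries number 28 was the highest, and the log2 fold change was 1.38 (SE 0.45, adjusted p = 0.126). Without L1CAM-negative 28, the log2 fold change of Aldoc was 1.75 with an adjusted p of 0.0199. Gpi1 and Tpi1, which interconvert sugar phosphates, did not pass the test, with log2 fold changes of 0.18 and 0.16.

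In lower glycolysis, 1 of 8 enzymes was higher and 1 was lower in L1CAM-positive spheres. Together these are 25%, against 33.5% called in either direction among genes at 1 FPKM or more in 2 libraries. Eno2, which encodes the neuron-specific enolase used as a marker of neurons and neuroendocrine cells, had 32.4 and 34.8 FPKM in L1CAM-positive 25 and 31, against 12.7, 14.7 and 19.1 FPKM in L1CAM-negative 25, 31 and 28. It was higher in both L1CAM-positive libraries, with a log2 fold change of 1.04 (SE 0.18, adjusted p = 0.0339). Eno1, the enolase of most cells, had 8.73 and 10.3 FPKM in L1CAM-positive spheres, against 9.84, 9.73 and 10.5 FPKM in L1CAM-negative spheres, so that the groups overlapped. Eno2 made up 78.8% and 77.1% of the FPKM of Eno1 and Eno2 together in L1CAM-positive spheres, against 56.4%, 60.2% and 64.5% in L1CAM-negative spheres. These shares leave out the enolase genes Eno1b and Eno3, which were measured in every library, so that the share of Eno2 among all enolases was smaller. Reads of Eno1 could also have been shared with its copies, described below. The shares therefore do not show that Eno2 was the main enolase of L1CAM-negative spheres. Ldhb, the lactate dehydrogenase subunit of heart, had 12.03 and 16.7 FPKM in L1CAM-positive spheres, against 25.1, 27.5 and 28.5 FPKM in L1CAM-negative spheres. It was lower in both L1CAM-positive libraries, by a log2 fold change of -0.84 (SE 0.15, adjusted p = 0.0365). Ldha, the subunit of muscle, had 63.2 and 147 FPKM in L1CAM-positive spheres, against 88.3, 100.1 and 124 FPKM in L1CAM-negative spheres. As with Slc2a1, its lowest and its highest level were both in L1CAM-positive libraries (log2 fold change -0.09, SE 0.43), and the sign of this value turned under centring on housekeeping genes.

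Gapdh, Pgk1, Pgam1 and Eno1, whose products catalyse successive steps of lower glycolysis, were listed at a low level. Gapdh had 6.07 and 8.93 FPKM in L1CAM-positive spheres, against 7.85, 5.52 and 6.77 FPKM in L1CAM-negative spheres, and none of these genes passed the test. Reads of several genes could have been shared with copies, whose part in the levels was not tested. In the GENCODE transcripts of GRCm38, 154 other genes, most of them pseudogenes, carried a copy of at least 90% identity over at least 50% of the Gapdh transcript, and 9 such copies were found for Ldha, 6 for Eno1, 5 for Aldoa, 5 for Pkm, 2 for Pgk1 and 1 each for Gpi1, Ldhb and Bnip3. None was found for Pgam1, which had a mean of 7.06 FPKM over the 5 libraries. How reads that fit several copies were divided is not given in the sources used here.

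Pkm encodes pyruvate kinase, whose transcripts include either of 2 alternative exons. The upstream exon gives the PKM1 enzyme of muscle and brain, and the downstream exon gives PKM2 of proliferating and many other cells. Both are shown because the coding sequences of PKM1 and PKM2 differ in this exon. Each has 167 bases, on the plus strand of GRCm38 at chr9:59675029-59675195 (transcript NM_001253883) and chr9:59675568-59675734 (transcript NM_011099), and lies inside the coding sequence. They differ at 64 bases, printed in capitals, and are 61.7% identical.
PKM1 exon: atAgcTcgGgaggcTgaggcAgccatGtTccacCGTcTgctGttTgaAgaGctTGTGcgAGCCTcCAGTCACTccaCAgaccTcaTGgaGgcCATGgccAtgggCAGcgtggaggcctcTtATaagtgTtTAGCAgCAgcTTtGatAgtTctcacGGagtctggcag
PKM2 exon: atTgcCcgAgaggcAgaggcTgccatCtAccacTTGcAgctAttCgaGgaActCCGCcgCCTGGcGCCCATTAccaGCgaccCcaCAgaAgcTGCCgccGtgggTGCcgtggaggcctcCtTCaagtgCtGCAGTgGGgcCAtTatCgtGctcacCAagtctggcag

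The PKM2 transcript, which had the higher mean, had 46.1 and 61.5 FPKM in L1CAM-positive 25 and 31, against 69.0, 60.9 and 117 FPKM in L1CAM-negative 25, 31 and 28. The PKM1 transcript had 63.4 and 63.9 FPKM, against 30.9, 32.4 and 57.1 FPKM. PKM1 was thus 57.9% and 51.0% of both transcripts in L1CAM-positive spheres, against 30.9%, 34.7% and 32.7% in L1CAM-negative spheres. The difference of the mean shares was 21.6 percentage points, and the groups did not overlap. Neither transcript passed limma's test over 32535 transcripts, with log2 fold changes of 0.69 (SE 0.32, adjusted p = 0.259) for PKM1 and -0.55 (SE 0.36, adjusted p = 0.422) for PKM2. These shares were computed after the transcript levels had been seen, and they rest on the authors' division of reads between transcripts that share their other exons.

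The 4 bifunctional enzymes of the Pfkfb family make and remove fructose 2,6-bisphosphate, the activator of phosphofructokinase. Pfkfb3, known for its strong kinase activity, had 1.78 and 1.95 FPKM in L1CAM-positive 25 and 31, against 3.62, 3.07 and 3.39 FPKM in L1CAM-negative 25, 31 and 28. It was lower in both L1CAM-positive libraries (log2 fold change -0.47, SE 0.07, adjusted p = 0.0260). Only this gene of the 4 passed, which is 25%, against 33.5% of genes at 1 FPKM or more in 2 libraries. The call was lost when all transcripts of a gene were summed (adjusted p = 0.368) or when levels were centred on housekeeping genes (adjusted p = 0.147). Pfkfb4, a known HIF target, had 10.8 and 11.0 FPKM in L1CAM-positive spheres, against 3.07, 3.63 and 6.89 FPKM in L1CAM-negative spheres. Its groups did not overlap, but its log2 fold change of 1.03 (SE 0.29) had an adjusted p of 0.0974, and of 0.0158 without L1CAM-negative 28. Pfkfb4 held 57.0% and 57.7% of the family's FPKM in L1CAM-positive spheres, against 18.4%, 25.2% and 33.5% in L1CAM-negative spheres. Pfkfb2, the form of heart, held 26.5% and 24.1%, against 46.2%, 42.9% and 39.2%, and Pfkfb1, the form of liver, was at most 2.27 FPKM in any library.

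Pyruvate dehydrogenase kinases keep pyruvate out of the mitochondrial oxidation pathway by inactivating pyruvate dehydrogenase. Of the 4 genes, 2 were lower in L1CAM-positive spheres, against 16.1% of genes at 1 FPKM or more in 2 libraries. With so few genes, this count is not read as particular to them. Pdk4, the isoform known to be induced by fasting and glucocorticoids, had 0.939 and 1.39 FPKM in L1CAM-positive 25 and 31, against 11.3, 8.68 and 13.9 FPKM in L1CAM-negative 25, 31 and 28. All L1CAM-negative libraries were far above both L1CAM-positive ones, and the log2 fold change was -2.05 (SE 0.21, adjusted p = 0.0117). Pdk3 had 8.56 and 9.99 FPKM, against 15.7, 15.2 and 16.9 FPKM, with a log2 fold change of -0.67 (SE 0.08, adjusted p = 0.0160). Pdk1, a HIF target, had 12.4 and 17.9 FPKM in L1CAM-positive spheres, against 12.2, 13.5 and 10.1 FPKM in L1CAM-negative spheres. Pdk2, the most widely expressed isoform, had 20.5 and 17.8 FPKM, against 17.3, 18.6 and 11.9 FPKM, and neither passed the test. Pdk4 therefore made up 2.21% and 2.96% of the 4 kinases in L1CAM-positive spheres, against 20.0%, 15.5% and 26.2% in L1CAM-negative spheres.

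The alpha subunits of HIF differed in composition. Epas1, which encodes HIF2A, had 70.2 and 59.5 FPKM in L1CAM-positive 25 and 31, against 27.2, 24.1 and 28.5 FPKM in L1CAM-negative 25, 31 and 28. Both L1CAM-positive libraries exceeded the others, with a log2 fold change of 1.22 (SE 0.11, adjusted p = 0.00977). Hif1a, which encodes HIF1A, had 48.7 and 48.1 FPKM in L1CAM-positive spheres, against 59.6, 59.1 and 105 FPKM in L1CAM-negative spheres. The groups did not overlap, but number 28 was far above the other L1CAM-negative libraries, and the log2 fold change of -0.55 (SE 0.31) had an adjusted p of 0.335. Without L1CAM-negative 28, it was -0.28 with an adjusted p of 0.0140. Hif3a, whose product is known to restrain the other subunits, had 0.832 and 1.85 FPKM in L1CAM-positive spheres, against 7.71, 9.84 and 9.40 FPKM in L1CAM-negative spheres. It was lower in both L1CAM-positive libraries, by a log2 fold change of -1.73 (SE 0.19, adjusted p = 0.0133). Epas1 made up 58.6% and 54.4% of the alpha subunit FPKM in L1CAM-positive spheres, against 28.8%, 25.9% and 20.0% in L1CAM-negative spheres, and Hif1a 40.7% and 43.96%, against 63.0%, 63.5% and 73.4%. Epas1 thus stood first in L1CAM-positive and Hif1a in L1CAM-negative spheres, in every library of each.

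None of the 4 genes for HIF degradation passed limma's test, against 33.5% of genes at 1 FPKM or more in 2 libraries. Of the 4, 1, Egln1, had an unadjusted p under 0.05 in that test. Egln2, the prolyl hydroxylase with the highest level of the 3, had 58.1 and 56.4 FPKM in L1CAM-positive spheres, against 56.7, 53.8 and 51.9 FPKM in L1CAM-negative spheres. Egln1, the main oxygen sensor of most cells, had 26.6 and 32.8 FPKM, against 23.4, 23.2 and 22.4 FPKM (log2 fold change 0.34, SE 0.10, adjusted p = 0.102). Egln1 did not overlap between the fractions, whereas the other hydroxylases did. Egln3, a hydroxylase gene that is itself a HIF target, had 3.45 and 11.4 FPKM in L1CAM-positive spheres, against 5.92, 8.56 and 6.33 FPKM in L1CAM-negative spheres. Vhl lay between 23.8 and 27.0 FPKM in all 5 libraries.

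Among the 8 HIF response genes, only Adm passed. This is 12.5%, against 21.6% of all genes and 33.5% of those at 1 FPKM or more in 2 libraries, and with 8 genes it is not read as particular. Adm encodes adrenomedullin, a vasodilator peptide first isolated from a tumour of chromaffin cells, and had 196 and 242 FPKM in L1CAM-positive 25 and 31, against 13.8, 11.7 and 5.45 FPKM in L1CAM-negative 25, 31 and 28. Its log2 fold change of 4.23 (SE 0.40, adjusted p = 0.0102) was the largest of the 44, with 3.65 within number 25 and 4.16 within number 31. The chromaffin marker sum was likewise higher in both L1CAM-positive libraries and lowest in L1CAM-negative 28, and its part in the level of Adm was not tested. P4ha1, a collagen prolyl hydroxylase, had 15.9 and 34.1 FPKM in L1CAM-positive spheres, against 45.0, 52.8 and 55.9 FPKM in L1CAM-negative spheres. The groups did not overlap, but the log2 fold change of -1.06 (SE 0.36) had an adjusted p of 0.135. Without L1CAM-positive 31, the log2 fold change was -1.57 and rested on 1 L1CAM-positive library. With 1 transcript per gene, the P4ha2 share of both hydroxylases was 35.9% and 29.2%, against 20.6%, 19.6% and 19.0%. This leaves out a second P4ha2 transcript, NM_011031. Its log2 values were 3.04 and 3.69 in L1CAM-positive 25 and 31, against 3.02, 2.83 and 3.28 in L1CAM-negative 25, 31 and 28. Ddit4, a stress-induced inhibitor of mTOR signalling, was at 91.2 and 79.9 FPKM, against 99.5, 84.0 and 107 FPKM. Bnip3, a mitophagy receptor, was at 27.1 and 43.9 FPKM, against 37.3, 39.1 and 28.0 FPKM, and its log2 fold change of 0.00 had no stable sign, as it turned under centring on the median. Ankrd37, which encodes an ankyrin repeat protein, Ak4, a mitochondrial adenylate kinase, and Car9 were at or below 11.0 FPKM in all libraries and had overlapping groups. When L1CAM-positive 25 was left out, the log2 fold changes were 1.57 for Ankrd37, 0.55 for Car9 and 0.48 for the hydroxylase gene Egln1. These values rest on L1CAM-positive 31 alone in that fraction.

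**Figure D2:**
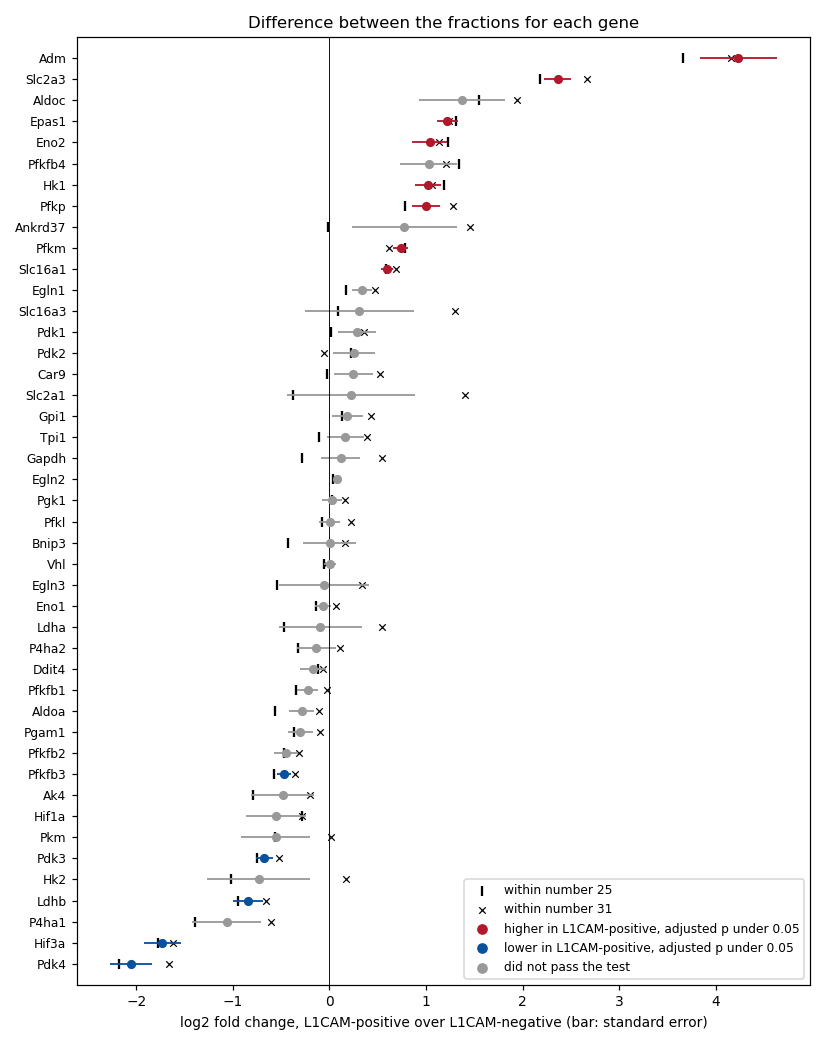
Log2 fold change of each of the 44 genes, L1CAM-positive over L1CAM-negative, with its standard error as a bar, ordered by size. Red and blue points passed the test as higher and lower, and grey points did not. Ticks and crosses give the difference within number 25 and within number 31, which have opposite signs for 14 genes, among them Slc2a1, Hk2 and Ldha.

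For the genes that passed, the difference can also be given within each number. As the fractions did not overlap in any of the 13, its sign within number 25 and within number 31 could not differ. Only its size is therefore described. For Slc2a3 it was 2.18 within number 25 and 2.67 within number 31, for Epas1 1.31 and 1.24, for Hk1 1.19 and 1.07, for Pdk4 -2.18 and -1.66 and for Hif3a -1.78 and -1.62. These pairs differ by culture time as well as by number, and each value rests on a single library per fraction.

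The division of each enzyme family among its isoforms was compared between the fractions as shares of the summed linear FPKM, which are per length. Of 33 shares in 13 families, 29 did not overlap between L1CAM-positive and L1CAM-negative libraries. Each of these had the smallest p that an exact 2-sided permutation test of 2 against 3 libraries can give, 0.1 (0.114 after adjustment over the 33 shares), so that the design cannot reach 0.05. Shares within a family add up to 100% and are not independent, and in a family of 2 isoforms both shares are counted. No background of shares in other families was computed, so that the count is not read as particular to these families. Levels often did not overlap either, in 48.9% of all genes. Of the 14091 genes at 1 FPKM or more in 2 libraries, 4154 overlapped. Each family holds only the isoforms chosen here, and the enolases leave out Eno1b and Eno3. Other than for Pkm, each gene enters by its transcript of highest mean alone, and its further transcripts are left out. The exceptions were both monocarboxylate transporters, Egln2 and Egln3. The isoforms with a larger share in both L1CAM-positive libraries than in any L1CAM-negative library were Hk1, Slc2a3, Pfkm, Pfkp, Aldoc, Eno2, PKM1, Ldha, Pfkfb4, Pdk1, Pdk2, Epas1, Egln1 and P4ha2, several of which are in the plot of shares. Of these, Hk1, Slc2a3, Pfkm, Pfkp, Eno2 and Epas1 also passed the test on their levels. The isoforms more frequent in L1CAM-negative spheres were Hk2, Slc2a1, Aldoa, Eno1, PKM2, Pfkl, Ldhb, Pdk3, Pdk4, Hif1a, Hif3a, P4ha1 and Pfkfb1 to Pfkfb3.

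**Figure D3:**
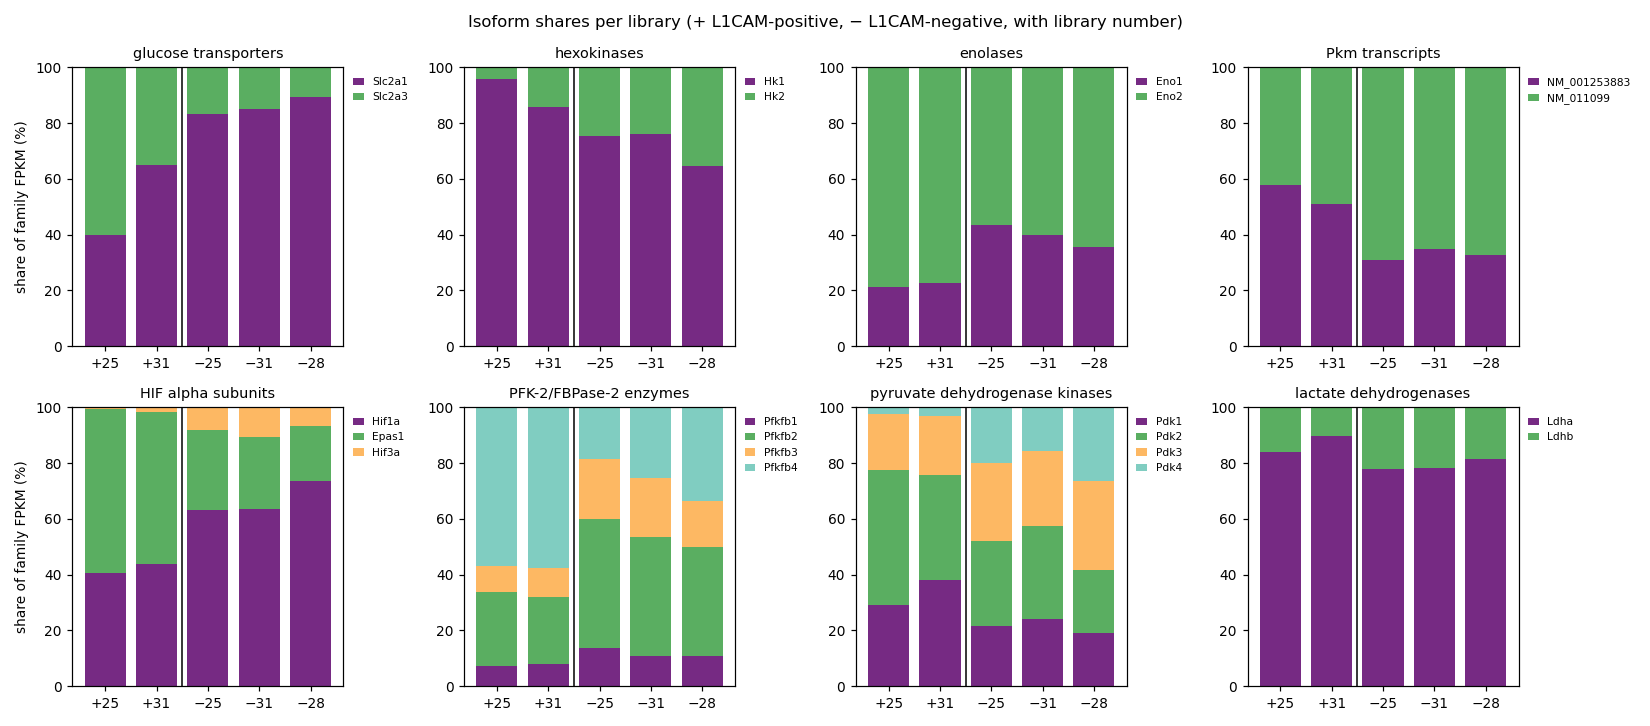
Share of each isoform in the summed FPKM of its family, in percent, as stacked bars that add up to 100%. Each panel is 1 family and each bar 1 library, the L1CAM-positive libraries left of the line and the L1CAM-negative ones right of it. In the HIF panel, Epas1 takes 58.6% and 54.4% in the L1CAM-positive bars and at most 28.8% in the L1CAM-negative bars.

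Besides the differences between fractions, some of the 44 genes differed between the L1CAM-positive libraries. In L1CAM-positive 31, 6 of the 44 genes were at least 2-fold (1 log2 unit) above L1CAM-positive 25, namely Slc2a1, Ankrd37, Egln3, Ldha, Hk2 and P4ha1. The log2 differences were 1.69, 1.59, 1.30, 1.19, 1.16 and 1.01. The background was 0.845% of the 14091 genes with at least 1 FPKM in 2 libraries, and none of the 44 was at least 2-fold lower (background 0.475%). As this sets 1 library against another, it has no replicate check and no test. In L1CAM-negative spheres, none of the 44 differed 2-fold between number 31 and 25 (background for higher 0.717%), and the difference was -0.08 for Slc2a1, 0.18 for Ldha and 0.11 for Ankrd37. Ankrd37 had 11.0 FPKM in L1CAM-positive 31 and 2.34 FPKM in L1CAM-positive 25, against 2.76, 2.39 and 2.07 FPKM in L1CAM-negative 31, 25 and 28. It was thus high in a single library of the 5. Car9, a carbonic anhydrase gene often used as a marker of hypoxia, had 1.26 FPKM in L1CAM-positive 31 and 0.142 FPKM in L1CAM-positive 25, against 0.186 to 0.266 FPKM in L1CAM-negative spheres. Adm, by contrast, was at a like level in both L1CAM-positive libraries (difference 0.30), as were Epas1 (-0.23), Pgk1 (0.08) and Ddit4 (-0.19). Over the 44 genes the median difference was 0.25 in L1CAM-positive and -0.04 in L1CAM-negative spheres, against 0.00 over all genes in both.

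Of the 26 other genes known as hypoxia-inducible that were measured, 4 were at least 2-fold higher in L1CAM-positive 31 than in 25. Cox4i2, a subunit of cytochrome oxidase, had 33.9 FPKM in L1CAM-positive 31 and 5.47 FPKM in 25, against 7.47 and 5.01 FPKM in L1CAM-negative 31 and 25. Lox, which crosslinks collagen, had 11.8 FPKM in L1CAM-positive 31 and 1.05 FPKM in 25. Ero1l, which forms disulfide bonds in the endoplasmic reticulum, had 40.3 FPKM in L1CAM-positive 31 and 12.7 FPKM in 25, and Vegfa, the angiogenic growth factor, 23.3 and 10.3 FPKM. These are the only 4 of the 68 further genes of both pathways that differed 2-fold in that direction. Markers of glia and Schwann cell precursors were also higher in this library. The 5 genes summed to 117 FPKM in L1CAM-positive 31 and 54.7 FPKM in L1CAM-positive 25, against 5.79 to 9.84 FPKM in L1CAM-negative spheres, and Sox10 and Fabp7 were 1.12 and 1.13 log2 units higher. Their part in the difference was not tested. L1CAM-positive 31 was kept for 5 days and 25 for 8 days, and the culture period cannot be told apart from the library.

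**Figure D4:**
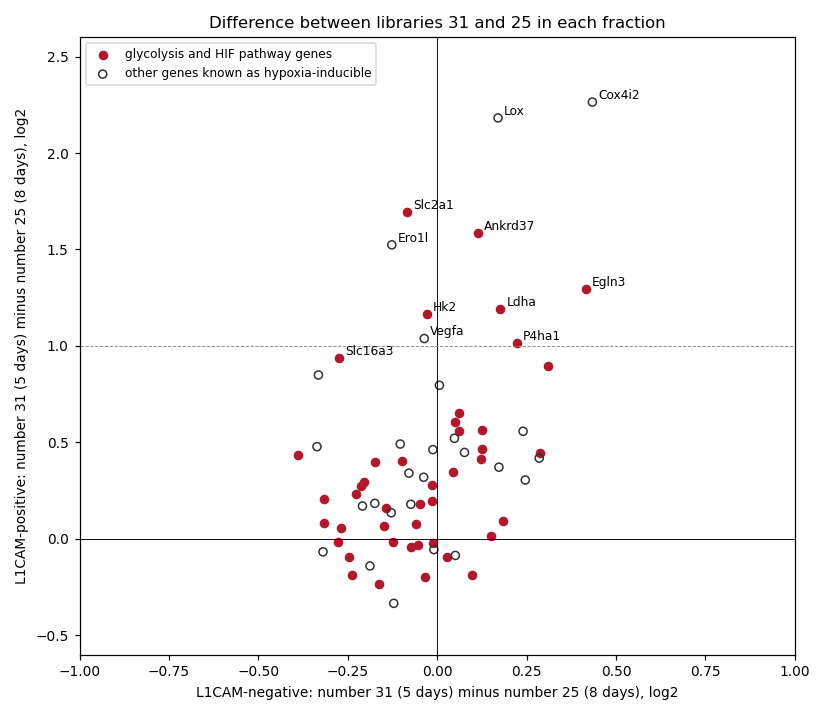
Difference between number 31 (5 days) and number 25 (8 days), in log2 units, in L1CAM-positive spheres (vertical axis) and in L1CAM-negative spheres (horizontal axis). Filled points are the 44 genes, and open points are 26 further genes known as hypoxia-inducible. The dashed line marks a 2-fold difference in L1CAM-positive spheres, above which 6 filled and 4 open points lie, whereas no point reaches it in L1CAM-negative spheres.

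HIF binds to DNA at a short core motif. Only its form ACGTG, which reads CACGT on the opposite strand, was searched and is called the motif below. Other forms were not searched, for the 44 genes or for the background. The promoter table from RefSeq (GRCm38.p6) held 42 of the 44 genes, and Epas1 and Slc2a3 were not matched. In the 250 bases upstream of the transcription start, 25 of the 42 genes (59.5%) contained the motif on either strand, against 18.5% of 27025 genes in the table and 24.7% of the 10723 genes that also reached 1 FPKM in 2 libraries. A gene can have several starts, and counted per start the shares were 44.6%, 16.6% and 21.2%. The 44 genes were chosen for glycolysis and the response to low oxygen, so that their share is not independent of that choice. CACGTG contains both forms, which then overlap. All 6 genes that were 2-fold higher in L1CAM-positive 31 were among the 25 with a match, and none was among the 17 without. The 6 were picked by their values in 1 library against another, and their link to the motif was not tested. The median difference between L1CAM-positive 31 and 25 was 0.28 for the 25 genes and 0.21 for the 17, which are close. A match is a description of the sequence and not a binding site. The windows of Slc2a1 (chr4:119108495-119108744, plus strand), Ldha (the first of its starts, chr7:46845554-46845803, plus strand), Ankrd37 (chr8:45999851-46000100, minus strand) and Adm (chr7:110627407-110627656, plus strand) are shown, as Slc2a1, Ldha and Ankrd37 differed between the L1CAM-positive libraries, and Adm differed between the fractions. Each ends at the base before the start, and capitals mark the motif.
Slc2a1: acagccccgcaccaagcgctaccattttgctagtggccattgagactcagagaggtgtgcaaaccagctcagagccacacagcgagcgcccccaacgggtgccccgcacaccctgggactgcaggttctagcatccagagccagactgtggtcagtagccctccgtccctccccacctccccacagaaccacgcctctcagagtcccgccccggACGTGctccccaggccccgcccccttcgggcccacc
Ldha: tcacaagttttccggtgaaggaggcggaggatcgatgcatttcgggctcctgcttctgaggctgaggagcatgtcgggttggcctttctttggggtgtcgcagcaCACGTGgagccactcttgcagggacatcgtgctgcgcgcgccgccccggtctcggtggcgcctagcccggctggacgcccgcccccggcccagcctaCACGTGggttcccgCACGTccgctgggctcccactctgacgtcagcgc
Ankrd37: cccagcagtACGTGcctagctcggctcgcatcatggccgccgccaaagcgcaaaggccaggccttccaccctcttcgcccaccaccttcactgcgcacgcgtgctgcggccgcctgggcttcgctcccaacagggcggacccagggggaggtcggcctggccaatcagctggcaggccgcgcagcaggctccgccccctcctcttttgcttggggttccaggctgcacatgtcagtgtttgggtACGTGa
Adm: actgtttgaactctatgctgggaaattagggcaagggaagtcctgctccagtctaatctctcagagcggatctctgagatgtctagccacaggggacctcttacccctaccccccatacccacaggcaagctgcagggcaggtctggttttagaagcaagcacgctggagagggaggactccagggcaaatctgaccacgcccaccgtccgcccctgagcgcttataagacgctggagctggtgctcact

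The windows of Slc2a1, Ldha and Ankrd37 hold the motif 1, 5 and 2 times, counting both strands. The window of Adm holds none, which says only that these letters are not in these 250 bases.

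In L1CAM-negative 28, the library from older mice, 2 of the 44 genes were at least 2-fold above the mean of L1CAM-negative 25 and 31, a count close to the background of 2.61%. These were Slc16a3 and Aldoc, by 1.17 and 1.11 log2 units. Hk2, Slc2a1, Pkm and Hif1a were higher by 0.94, 0.87, 0.84 and 0.80. Adm was lower by a log2 difference of -0.98. The chromaffin marker sum was lower in this library. The endothelial marker sum was 361 FPKM, against 185 and 195 FPKM in L1CAM-negative 25 and 31. Most of it was Emcn, at 313 FPKM against 145 and 154 FPKM, and Plvap was also higher. Cdh5 was lower, at 15.1 FPKM against 21.1 and 17.8 FPKM, as were Kdr and Tek, and Pecam1 and Cldn5 lay between. The part of these cell types in the differences was not tested.

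Among 68 further genes of the same pathways, 6 were higher and 11 were lower in L1CAM-positive spheres, together 25% of them, a share between the backgrounds of 21.6% of all genes and 33.5% of those at 1 FPKM or more in 2 libraries. Their median log2 fold change was -0.03. The list was written with earlier results of these data known. Ndufa4l2, a mitochondrial protein encoded by a HIF target gene, had 139 and 193 FPKM in L1CAM-positive 25 and 31, against 7.35, 7.27 and 3.74 FPKM in L1CAM-negative 25, 31 and 28. Its log2 fold change was 4.39 (SE 0.31, adjusted p = 0.00665), close to that of Adm. Arnt2, a beta subunit partner of HIF in neural cells, had 85.3 and 75.9 FPKM, against 6.33, 5.49 and 8.23 FPKM (log2 fold change 3.26, adjusted p = 0.00467). The common partner Arnt moved the other way, with 14.7 and 12.5 FPKM in L1CAM-positive spheres, against 25.0, 23.5 and 29.1 FPKM in L1CAM-negative spheres (log2 fold change -0.83, adjusted p = 0.0227). The sugar transporter gene Slc2a6 (log2 fold change 1.21, adjusted p = 0.0219) and the carbonic anhydrase gene Car12 (0.92, adjusted p = 0.0176) were also higher. Car12 had 2.14 and 3.24 FPKM in L1CAM-positive spheres, against 0.540, 0.405 and 0.442 FPKM in L1CAM-negative spheres.

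The 4 genes of this list with the largest fall among those that passed were Tmem45a (log2 fold change -2.51, adjusted p = 0.0194), Pcx (-1.84, adjusted p = 0.00539), Slc2a4 (-1.57, adjusted p = 0.0103) and Ppp1r3c (-1.55, adjusted p = 0.0194). Pcx encodes pyruvate carboxylase, which feeds pyruvate into the citric acid cycle, and had 16.1 and 16.0 FPKM in L1CAM-positive spheres, against 66.8, 54.6 and 66.7 FPKM in L1CAM-negative spheres. Slc2a4 encodes the insulin-responsive transporter GLUT4, with 4.51 and 3.29 FPKM, against 13.9 to 17.5 FPKM. None of the 10 genes of mitochondrial pyruvate entry was called higher, and 3 were called lower, and of the 26 hypoxia-inducible genes, 2 were called higher and 6 lower. Among all genes at 1 FPKM or more in 2 libraries, 17.4% were called higher and 16.1% lower, so that with so few genes these counts are not read as particular to the lists. The collagen-modifying genes Plod1, Plod2 and Loxl2 were among the 6 lower genes. The 2 genes with the highest mean, Dld and Fam162a, did not pass the test (adjusted p = 0.0658 and 0.879).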

How the data were processed

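The authors extracted total RNA from the spheres, sequenced stranded mRNA libraries, used STAR 2.6.1a with mm10 for alignment and computed FPKM per RefSeq transcript with Cufflinks, followed by quantile normalization with limma, per the labels and the methods of the study. The annotation release is not given in the sources used here. The name of the deposited sheet refers to more samples than the 5 analysed here, and whether they were normalized together is not stated. The deposited values are in log2 units, with a lowest value of exactly 1, from which an offset of 2 on the FPKM was inferred, so that linear FPKM were computed as the power of 2 less 2. Depth is unknown, no counting interval was computed, and the number of libraries limits the precision.

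Groups and numbers came from the sample titles. The table held 32737 transcripts, and 202 of them had no gene symbol and were not used. Each of 23903 genes was represented by its transcript of highest mean level and tested with the lmFit and eBayes functions of limma 3.58.1 under R 4.3.3 (trend on), 2-sided, with Benjamini-Hochberg adjustment over all genes and a threshold of 0.05. No filter on low values was applied. The model was tested on simulated data. Isoform shares were compared with exact permutation tests over the 10 possible splits. Copies of each transcript were searched with BLAST 2.17.0 in GENCODE transcripts. Sequences came from RefSeq promoters (GRCm38.p6) and the GRCm38 genome. The genes and lists were chosen with earlier results of these data known. All 44 genes are accounted for. Some genes of the further lists are not reported here and were left out of their counts. Of the 68 further genes, the text names up to 4 in each direction with the largest change that passed, and the 2 of highest mean level. Arnt, Eno1b, Eno3, the genes 2-fold higher in L1CAM-positive 31 and the collagen-modifying genes were named after their values had been seen. Alternatives comprised 3 other offsets of the logarithm, filters, summed transcripts, mRNA only, other scaling, other variance estimates, culture period as a term, number as a block and leaving out each library.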

Additional observations from a re-analysis of the deposited data

Results flagged for a closer look

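For 14 of the 44 genes, the difference between L1CAM-positive and L1CAM-negative spheres had opposite signs in the 2 numbers that held both fractions, and each of these values rests on 1 library per fraction and was not tested. None of these 14 genes passed the test between the fractions. The difference within number 31 less that within number 25 was 1.78 log2 units for Slc2a1, with 1.40 within number 31 and -0.38 within number 25. It was 1.47 for Ankrd37, 1.19 for Hk2, 1.01 for Ldha and 0.88 for Egln3, all 2-fold higher in L1CAM-positive 31 than in 25. It was 0.83 for Gapdh, 0.59 for Bnip3, 0.57 for Pkm, 0.55 for Car9, 0.50 for Tpi1, 0.44 for P4ha2, 0.30 for Pfkl and 0.21 for Eno1. Pdk2 was the 1 gene of the 14 with the other order, at -0.28. P4ha1, also 2-fold higher in L1CAM-positive 31, was not among the 14, with -1.39 within number 25 and -0.60 within number 31. Copies of at least 90% identity over at least 50% of the transcript exist for Gapdh, Ldha, Pkm, Eno1 and Bnip3, and their part in these values was not tested.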

How the results depend on the processing

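The results were recomputed under 19 alternatives. The 13 genes that passed the test had the same direction in all 247 values and passed in 177 of them. Of the 8 higher and 5 lower genes, 2 and 1 passed with a robust variance estimate, and 5 and 2 with culture period as a term. Of the 68 further genes, 2 and 2 passed as higher and lower with the robust estimate and 3 and 7 with culture period. When 1 library was left out, the counts ranged from 3 to 9 higher and from 0 to 4 lower among the 44 genes (0 lower without L1CAM-positive 25 or L1CAM-negative 25, where 6 and 5 lower genes had an unadjusted p under 0.05 in limma), and from 3 to 6 higher and from 2 to 15 lower among the further genes. With number as a replicate block, which drops L1CAM-negative 28 in effect, 0 genes of the 44, of the 68 and of all 23903 passed with limma, whereas 15, 24 and 8417 had an unadjusted p under 0.05. For the 13 genes the directions were kept, and the adjusted p was between 0.0630 and 0.158. The labels do not say that a number pairs cultures, and with 2 pairs the 25 minus 31 differences of both fractions correlated at 0.215 across 16032 genes and at 0.405 across the 44. Centring on 8 housekeeping genes moved the median of all genes by 0.11 log2 units and gave 3296 higher and 1962 lower genes, against 2775 and 2393, and the robust estimate gave 797 and 352.

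Reversals were confined to 14 genes that had not passed and 3 shares. Centring on the median gave log2 fold changes of -0.00081 for Pfkl, -0.0034 for Vhl and -0.0025 for Bnip3, and centring on housekeeping genes gave 0.040 for Eno1, 0.013 for Ldha and 0.051 for Egln3. The block gave 0.038 for Ldha, -0.044 for Vhl and -0.14 for Bnip3, culture period gave -0.068 for Bnip3, and summed transcripts gave 0.045 for P4ha2. Leaving out 1 library gave ranges of -0.63 to 1.07 for Slc2a1, -0.16 to 0.78 for Slc16a3, -0.075 to 0.085 for Pfkl, -0.12 to 0.44 for Tpi1, -0.10 to 0.34 for Gapdh, -0.021 to 0.092 for Pgk1, -0.16 to 0.032 for Eno1, -0.69 to 0.50 for Ldha, -0.70 to 0.59 for Egln3, -0.044 to 0.039 for Vhl, -0.019 to 1.57 for Ankrd37, -0.32 to 0.33 for Bnip3, -0.055 to 0.55 for Car9 and -0.42 to 0.15 for P4ha2. The share differences ranged from -10.2 to 4.65 percentage points for Slc16a3, from -8.30 to 1.51 for Egln2 and from -4.34 to 3.05 for Egln3. The causes were not tested. Of the genes that had not passed, 8 did so in at least 1 alternative, among them Pfkfb2 with a filter at 1 FPKM (adjusted p = 0.0374). Depth limits could not be given, since no read totals were used here.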
